A study of Mus musculus with 6 samples.

Results

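The 33 genes described here encode enzymes and regulators of cholesterol and fatty acid synthesis. They were taken by symbol, and all 33 were found among the 20327 gene symbols of the tag counts. Of these, 7 belong to the isoprenoid steps, 11 to the squalene and sterol steps and 9 to fatty acid synthesis, 5 are regulators, and *Stard4* encodes a carrier that moves sterols between membranes. Their expression was compared between IL-11+ and IL-11- fibroblasts of the inflamed colon, to ask how cells that express *Il11* in colitis differ from their neighbors. Both groups came from C57BL/6 mice, 9 to 15 weeks old, that carried the *Il11-Egfp* reporter, a bacterial artificial chromosome in which the *Il11* promoter drives *Egfp*. To induce colitis, all mice were given 1.5% dextran sulfate sodium (DSS) for 5 days, and the colon was taken on day 7. Cells negative for Ter119, CD45, CD31 and EpCAM were sorted by EGFP, and cells with EGFP are called IL-11+ and those without it IL-11-, with 3 libraries in each group. Expression was measured by 5′Tag-seq, which counts sequence tags from the 5′ side of polyA transcripts.

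In replicates 1, 2 and 3, in this order here and throughout, the IL-11- libraries held 1057170, 1078179 and 1169817 tags and the IL-11+ libraries 1046538, 1022851 and 1049048. Of all tags, the 33 genes took 1010, 1029 and 1268 tags in the IL-11- and 1268, 1209 and 1317 tags in the IL-11+ libraries. Levels are given as normalized CPM, the CPM of a gene among the tags of the tested genes after TMM scaling, and as mean ± SD over the 3 libraries of a group. At this depth, a gene with 3 tags stood at 2.46 to 3.18 normalized CPM, which was taken as the floor and covers counting error only. *Il11*, the gene of the reporter, had 28, 51 and 89 tags in the IL-11- and 1357, 732 and 2658 tags in the IL-11+ libraries, in the direction of the sort.

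Marker genes were read to check the cells of the 2 gates. All 9 fibroblast markers were tested, and their summed level was 22122, 22107 and 24635 normalized CPM in the IL-11- and 42227, 33957 and 30313 in the IL-11+ libraries, with *Dcn* the most abundant. *Col3a1* and *Pdpn* were called higher in IL-11+ fibroblasts. By the adjusted p alone *Dcn* and *Thy1* were also higher and *Lum* was lower, with log2 fold changes of 0.67, 0.88 and -0.64, and *Vim* stood at -0.27 without passing. The IL-11- gate also held transcripts of smooth muscle cells and pericytes. All 6 markers of these cells were called lower in IL-11+ fibroblasts, with a summed level of 3449, 3464 and 3747 in the IL-11- and 262, 266 and 395 in the IL-11+ libraries, and *Rgs5* was the most abundant. Of 4 glial markers, 2 were tested and called lower, and the 4 summed to 104, 81.0 and 96.1 in the IL-11- and 17.0, 12.2 and 12.4 in the IL-11+ libraries. *Notch3* of the muscle markers and *Gfap* of the glial markers reached 10 tags only in IL-11- libraries, so their tests could go only this way. *S100b* and *Sox10* were at 0 tags in the IL-11+ libraries. Of the 7 adipocyte markers, 5 were found, and they summed to 149, 65.0 and 30.4 in the IL-11- and 8.48, 7.11 and 2.86 in the IL-11+ libraries. *Fabp4* made up most of this sum. *Plin4*, which was not tested, had 13, 13 and 8 tags in the IL-11- libraries and 0 in each IL-11+ library, and *Adipoq* had 2, 0 and 0 tags in the IL-11- libraries and 0 tags in each IL-11+ library.

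Markers of epithelium, immune cells, endothelium and mesothelium were low. Summed over the markers found, epithelial genes stood at 3.82, 1.88 and 18.9 normalized CPM in the IL-11- and 2.12, 3.05 and 4.77 in the IL-11+ libraries. Immune markers summed to 18.1, 17.9 and 17.2 in the IL-11- and 38.2, 17.3 and 15.3 in the IL-11+ libraries. Endothelial markers stayed at or under 2.83, and mesothelial markers at or under 10.7, in each library. Red cell genes, whose cells the sort removes by Ter119, reached higher levels in IL-11- replicates 1 and 3, at 90.7, 0 and 305 in the IL-11- and 18.0, 2.03 and 19.1 in the IL-11+ libraries.

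Cholesterol is built from acetyl-CoA through mevalonate and the isoprenoid farnesyl diphosphate, which is joined into squalene, closed to lanosterol and trimmed to cholesterol. Fatty acids start from the same acetyl-CoA, which is carboxylated to malonyl-CoA, assembled into palmitate and then elongated or desaturated. The transcription factor encoded by *Srebf2* drives the sterol genes, and that encoded by *Srebf1* acts more on the fatty acid genes. Both are made as membrane proteins that Scap carries to the Golgi for cleavage when sterols are low, and that Insig proteins hold in the endoplasmic reticulum when sterols are plentiful. Much of this feedback was worked out in cultured fibroblasts.

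In IL-11+ fibroblasts, 3 genes of this group were higher: *Cyp51*, *Sqle* and *Fdps*, all from the later isoprenoid and the sterol steps, by 2.77-fold, 2.67-fold and 2.36-fold. Calls required a Benjamini-Hochberg adjusted p under 0.05 in the quasi-likelihood test of edgeR, together with a fold change over 2. The test covered 9334 genes that reached 10 tags in 3 or more libraries, among them 27 of the 33. A gene that reaches 10 tags in 1 group only enters the test because it is high there, which was so for 0 of the 27. Still, *Acat2*, *Pmvk* and *Nsdhl* reached 10 tags in 3 IL-11+ libraries but in only 1, 2 and 2 IL-11- libraries. Their values enter the medians and direction counts below. Of these 27, 3 were called higher and 0 lower, where 3.44% of all tested genes were called higher (321) and 6.37% lower (595). At an unadjusted p under 0.05 the counts were 7 higher and 0 lower, where 12.2% of all tested genes were higher and 14.5% lower. This test used no pairing of libraries. With the replicate number added as a block, *Msmo1* was also called, which made 4 of the 27 higher and 0 lower. The block called 337 of all tested genes higher and 648 lower. DESeq2 called 3 of the 27 higher and 0 lower, and 3.04% and 5.17% of all tested genes. By the adjusted p alone, *Elovl6* was added to the higher genes, making 4 higher and 0 lower, where 6.84% of all tested genes were higher and 8.7% lower. The groups did not overlap in 7 of the 27 genes, 6 higher in IL-11+ fibroblasts and 1 (*Elovl5*) lower, where 14.5% and 16.7% of all tested genes did not overlap in these directions. In bulk libraries such as these, fewer cells of a type and less RNA per cell cannot be told apart. The part of the smooth muscle, pericyte and glial transcripts of the IL-11- gate in these differences was not tested.

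The median log2 fold change over the 27 tested genes was 0.36, against -0.01 over all tested genes. The log2 fold change was above 0 in 22 of the 27 (81.48%, against 48.78% of all tested genes), and in 19 with scaling by library size only, where *Srebf1*, *Acaca* and *Fads1* fell just under 0. Without IL-11- replicate 1 the median was 0.23. All 6 libraries held at least 10 tags for 23 of the genes, and *Acat2*, *Pmvk*, *Fdft1* and *Nsdhl* passed through fewer libraries. With 10 tags required in all 6 libraries, 16 of the 23 stood above 0 and 7 below, with a median of 0.22. The 6 genes left untested were *Mvk*, *Mvd*, *Lss*, *Tm7sf2*, *Dhcr7* and *Fads2*.

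**Figure D1:**
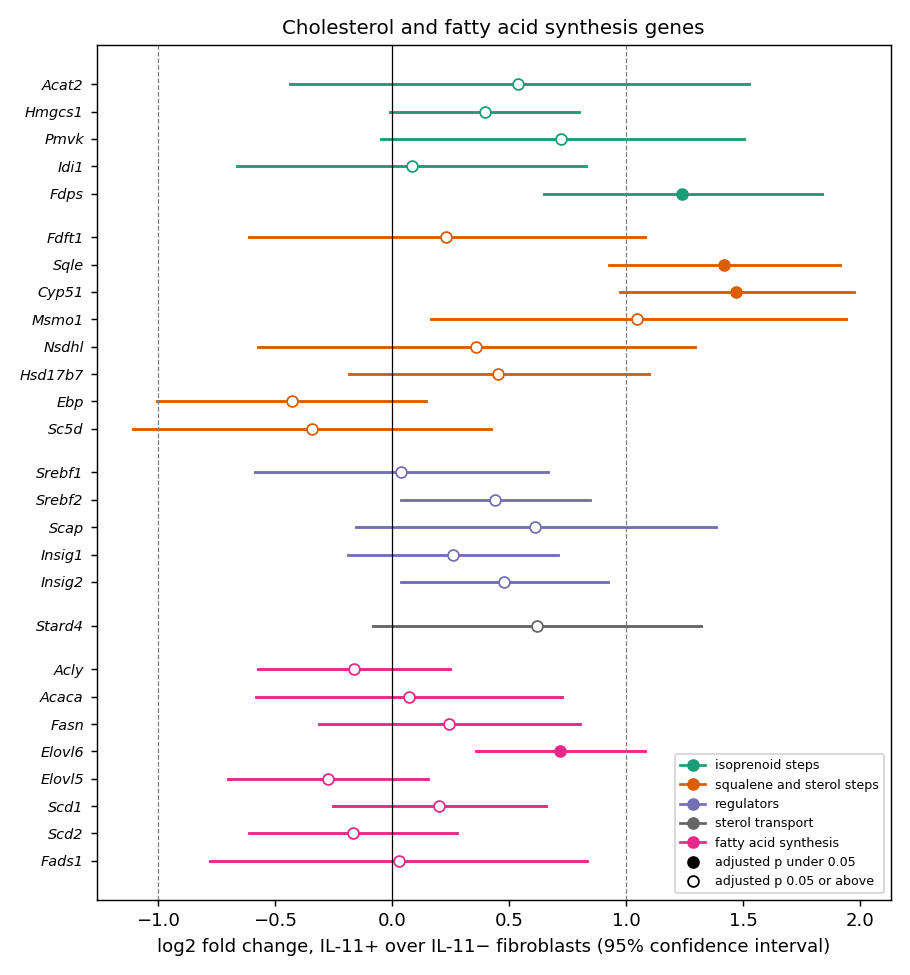
Log2 fold change of each of the 27 tested genes, IL-11+ over IL-11- fibroblasts, with its 95% confidence interval on the x axis and the genes grouped by role on the y axis. Filled points have an adjusted p under 0.05 and dashed lines mark a fold change of 2. *Fdps*, *Sqle*, *Cyp51* and the open point of *Msmo1* lie beyond the right-hand line, and the filled point of *Elovl6* lies inside it.

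In the isoprenoid steps, 5 of 7 genes were tested and 1 was called higher and 0 lower (3.44% and 6.37% of all tested genes). The median log2 fold change was 0.54, and 0.35 with 10 tags required in all 6 libraries. *Fdps* encodes farnesyl diphosphate synthase, which makes the last isoprenoid before squalene, and lies on the minus strand of chromosome 3 (89093588 to 89101959 in GRCm38). It had 13, 26 and 30 tags in the IL-11- and 36, 56 and 54 tags in the IL-11+ libraries. The groups did not overlap, and IL-11- replicate 1 was the lowest library. The level averaged 20.5 ± 7.02 normalized CPM over the IL-11- and 48.8 ± 9.63 over the IL-11+ libraries (SD, n = 3). On the log2 scale the difference was 1.24 (SE 0.283, 95% confidence interval 0.65 to 1.84, edgeR adjusted p = 0.0046). Without IL-11- replicate 1 it was 0.97, just under the fold threshold, and the call was lost (edgeR adjusted p = 0.0309, range over the alternatives 0.000116 to 0.0329). Of the 50-nt windows in the first 300 nt of its transcripts, 57.4% also occur in 6 other annotated genes, 0 of which are among the counted symbols, so the count of *Fdps* is less certain.

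*Hmgcs1* encodes an enzyme of the first mevalonate steps. It had 76, 98 and 144 tags in the IL-11- and 131, 110 and 130 tags in the IL-11+ libraries. After scaling, IL-11- replicate 3 lay within the range of the IL-11+ libraries, so the groups overlapped, although the IL-11+ library was higher in each of the 3 pairs of the same number. The log2 fold change was 0.40 (95% confidence interval -0.01 to 0.80, edgeR adjusted p = 0.195), so a change from none to 1.74-fold was within the interval. Without IL-11- replicate 1 it was 0.22. *Pmvk*, which encodes phosphomevalonate kinase, had 12, 9 and 14 tags in the IL-11- and 17, 12 and 23 tags in the IL-11+ libraries. Its groups did not overlap after scaling, but at so few tags its log2 fold change of 0.72 had an SE of 0.37 (edgeR adjusted p = 0.22). *Acat2*, encoding an acetoacetyl-CoA thiolase, and *Idi1*, encoding the isomerase of isopentenyl diphosphate, had log2 fold changes of 0.54 and 0.09 and overlapping groups. For *Acat2* the value was 0.10 without IL-11- replicate 3 and 1.08 without IL-11- replicate 1. *Idi1* shares 39.2% of its windows with 4 other annotated genes and *Acat2* 27.7% with 1, so both counts are less certain.

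In the squalene and sterol steps, 8 of 11 genes were tested and 2 were called higher and 0 lower (3.44% and 6.37% of all tested genes). The median log2 fold change was 0.41, with up to 0.63 without IL-11- replicate 2 and 0.71 with 10 tags required in all 6 libraries. *Sqle* encodes squalene epoxidase, a rate-limiting enzyme that adds oxygen to squalene, and lies on the plus strand of chromosome 15 (59315077 to 59331192). It had 25, 22 and 27 tags in the IL-11- and 65, 57 and 55 tags in the IL-11+ libraries. The groups were far from overlapping, and the IL-11- libraries were nearly equal. Its level averaged 22.3 ± 1.57 normalized CPM over the IL-11- and 59.7 ± 8.38 over the IL-11+ libraries (SD, n = 3). The log2 fold change was 1.42 (SE 0.235, 95% confidence interval 0.93 to 1.92, edgeR adjusted p = 0.000285). *Cyp51*, on the minus strand of chromosome 5 (4081145 to 4104746), encodes the demethylase that takes the first methyl group from lanosterol. It had 18, 29 and 35 tags in the IL-11- and 67, 71 and 65 tags in the IL-11+ libraries. Here too the groups did not overlap, and IL-11- replicate 1 was the lowest library. The level of *Cyp51* was 24.4 ± 6.30 and 68.4 ± 5.55 normalized CPM in the 2 groups (SD, n = 3). This gave the largest log2 fold change of the 27 genes, 1.47 (SE 0.238, 95% confidence interval 0.98 to 1.98, edgeR adjusted p = 0.000224). Both *Sqle* and *Cyp51* were called in each of 22 alternatives, and neither shares a window with another annotated gene.

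*Msmo1* encodes the oxidase that acts on the remaining methyl groups of the sterol ring. It had 10, 10 and 30 tags in the IL-11- and 49, 18 and 24 tags in the IL-11+ libraries. IL-11- replicate 3 was above IL-11+ replicates 2 and 3 once scaled, and IL-11+ replicate 1 stood apart from the other two. Its log2 fold change of 1.05 (SE 0.422, 95% confidence interval 0.17 to 1.94) did not pass the test (edgeR adjusted p = 0.108). When the replicate number was added as a block it was 1.02 and passed (edgeR adjusted p = 0.0262, range over the alternatives 0.0114 to 0.555). Without IL-11- replicate 3 it was 1.67 and also passed (edgeR adjusted p = 0.0241), as it did with no filter on the genes (1.09). It fell to 0.48 without IL-11+ replicate 1 (edgeR adjusted p = 0.549) and to 0.80 and 0.81 without IL-11- replicate 1 or 2.

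The other 5 tested genes of these steps overlapped between the groups and had edgeR adjusted p of at least 0.348. *Fdft1*, which encodes squalene synthase, had a log2 fold change of 0.23, with 9, 16 and 15 tags in the IL-11- and 19, 8 and 15 in the IL-11+ libraries, and it shares 23.1% of its windows with 1 other annotated gene. *Nsdhl* and *Hsd17b7*, whose products complete the removal of the C4 methyl groups, had log2 fold changes of 0.36 and 0.45, and that of *Nsdhl* ranged from 0.02 (without IL-11+ replicate 2) to 0.86 (without IL-11- replicate 2). For both genes the IL-11+ library was higher in 3 of 3 pairs of the same number after scaling. Before scaling, both libraries of replicate 3 held 10 tags of *Nsdhl*, and those of replicate 2 held 17 and 18. The enzymes that then move and add double bonds in the ring gave values of the opposite sign. *Ebp*, the sterol isomerase gene, was lower in the IL-11+ library in 3 of 3 pairs and had a log2 fold change of -0.43 (95% confidence interval 0.50-fold to 1.11-fold). *Sc5d*, the desaturase gene, had one of -0.34 (95% confidence interval -1.11 to 0.43), with 49 tags in IL-11- replicate 3 and 16 to 25 in the other 5 libraries. Neither value passed the test, and that of *Sc5d* turned to 0.20 without IL-11- replicate 3.

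The untested genes of both pathways had few tags. *Mvk*, encoding mevalonate kinase, had 15, 7 and 15 tags in the IL-11- and 5, 8 and 9 in the IL-11+ libraries. *Lss*, encoding the cyclase that makes lanosterol, had 7, 4 and 8 tags in the IL-11- and 17, 6 and 9 in the IL-11+ libraries. For *Lss* the groups overlapped, with IL-11+ replicate 1 the highest library, although the IL-11+ library was higher in 3 of 3 pairs. *Mvd*, the decarboxylase gene of the mevalonate steps, had 1 to 7 tags per library, and the sterol reductase genes *Dhcr7* and *Tm7sf2* had at most 4 tags in any library. With no filter on the genes, 0 of these 3 passed (edgeR adjusted p of at least 0.526). The groups of *Mvd* did not overlap after scaling, with the IL-11+ libraries higher.

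The 5 regulators were all tested, and 0 were called in either direction, with 2 higher and 0 lower at an unadjusted p under 0.05 (12.2% and 14.5% of all tested genes) and 0 called by DESeq2. Their median log2 fold change was 0.44, and 0.22 without IL-11+ replicate 1. *Srebf2* had 68, 76 and 112 tags in the IL-11- and 97, 87 and 126 tags in the IL-11+ libraries. In both groups replicate 3 held the most tags, and after scaling IL-11- replicate 3 reached 92.0 normalized CPM, above the 88.3 of IL-11+ replicate 2. Between libraries of the same number, the IL-11+ library was higher in 3 of 3 pairs, and with the replicate block the adjusted p was 0.0622 (range over the alternatives 0.0603 to 0.413). Its log2 fold change was 0.44 (SE 0.192, 95% confidence interval 0.04 to 0.84, edgeR adjusted p = 0.14). *Srebf1* had 31, 18 and 28 tags in the IL-11- and 19, 27 and 25 tags in the IL-11+ libraries. Its libraries were intermixed, with a log2 fold change of 0.04 (SE 0.298, 95% confidence interval -0.58 to 0.67, edgeR adjusted p = 0.95), so a change of 1.59-fold upward is within the interval.

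The genes of the proteins that hold or carry these factors gave values between those of *Srebf1* and *Fdps*. *Insig2* had 64, 53 and 47 tags in the IL-11- and 68, 70 and 68 tags in the IL-11+ libraries, and its groups did not overlap. With a log2 fold change of 0.48 (SE 0.21) it did not pass the test (edgeR adjusted p = 0.143). *Insig1*, itself a target of the sterol-regulated factors, had a log2 fold change of 0.26 (95% confidence interval -0.19 to 0.71). *Scap* had one of 0.61, which rested on 38 tags in IL-11+ replicate 1, against 15 to 20 in the other 5 libraries, and was 0.08 without that library. *Stard4*, the carrier gene, had 11, 24 and 30 tags in the IL-11- and 32, 20 and 37 tags in the IL-11+ libraries, which amounts to 0.62 on the log2 scale (SE 0.334) that did not pass the test (edgeR adjusted p = 0.251), and to 0.31 without IL-11- replicate 1.

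Among the 9 fatty acid genes, 8 were tested and 0 were called in either direction, with 1 higher and 0 lower at an unadjusted p under 0.05 (12.2% and 14.5% of all tested genes) and 0 called by DESeq2. Their median log2 fold change was 0.05, and -0.02 with scaling by library size only. With 1 library left out it lay between -0.12 (without IL-11- replicate 3) and 0.19 (without IL-11- replicate 2), and it was -0.04 without IL-11+ replicate 2. *Elovl6*, which encodes the elongase that extends palmitate to stearate, lies on the plus strand of chromosome 3 (129532355 to 129638495). It had 75, 79 and 96 tags in the IL-11- and 107, 138 and 123 tags in the IL-11+ libraries. The groups did not overlap, and the IL-11- libraries were within a narrow range once scaled. Its level averaged 75.0 ± 3.64 normalized CPM over the IL-11- and 124 ± 14.4 over the IL-11+ libraries (SD, n = 3). On the log2 scale the difference was 0.72 (SE 0.172, 95% confidence interval 0.36 to 1.08, edgeR adjusted p = 0.0067), a 1.65-fold difference that is under the fold threshold. *Elovl6* shares 14.9% of its windows with 1 other annotated gene, which is not among the counted symbols.

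*Fasn*, the gene of fatty acid synthase, had 24, 25 and 37 tags in the IL-11- and 29, 26 and 36 tags in the IL-11+ libraries. The ranges of the 2 groups overlapped, and replicate 3 was the highest library in both, although the IL-11+ library was higher in 3 of 3 pairs. The fitted log2 fold change was 0.25 (SE 0.265, 95% confidence interval -0.31 to 0.80, edgeR adjusted p = 0.61). The genes of the steps before it, *Acly* for ATP citrate lyase and *Acaca* for acetyl-CoA carboxylase, had log2 fold changes of -0.16 and 0.07, and *Acaca* shares 15.5% of its windows with 1 other annotated gene. *Acly* was lower in the IL-11+ library in 3 of 3 pairs. The stearoyl-CoA desaturase genes *Scd1* and *Scd2* had values of 0.20 and -0.17, and that of *Scd1* was 0.01 without IL-11- replicate 3. For *Scd2*, IL-11- replicate 1 was the highest library with 116 tags, and the value was 0.02 without it. *Elovl5*, which encodes an elongase of polyunsaturated fatty acids, had 60, 53 and 75 tags in the IL-11- and 43, 46 and 50 tags in the IL-11+ libraries. All 3 IL-11+ libraries were below the IL-11- libraries after scaling, but its log2 fold change of -0.27 (SE 0.204) did not pass the test (edgeR adjusted p = 0.441). *Fads1*, a desaturase gene of the same polyunsaturated pathway, had 38, 49 and 11 tags in the IL-11- and 31, 30 and 30 in the IL-11+ libraries. IL-11- replicate 3 was the lowest library by far, and the log2 fold change was 0.03 with it and -0.45 without it. The untested *Fads2* had 6 to 12 tags per library and was lower in the IL-11+ library in 3 of 3 pairs.

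Summed by role, the isoprenoid and sterol genes stood higher in each IL-11+ library than in any IL-11- library, and the fatty acid genes overlapped between the groups. The 18 isoprenoid and sterol genes together stood at 278, 327 and 397 normalized CPM in the IL-11- and 551, 471 and 498 in the IL-11+ libraries, 1.52-fold higher in the mean. Without *Fdps*, *Sqle* and *Cyp51* the other 15 genes summed to 224, 254 and 321 in the IL-11- and 373, 284 and 332 in the IL-11+ libraries, 1.24-fold higher in the mean, and the groups overlapped. The 5 regulators summed to 213, 195 and 226 in the IL-11- and 295, 260 and 277 in the IL-11+ libraries, a ratio of 1.31. The 9 fatty acid genes gave 463, 425 and 394 in the IL-11- and 464, 476 and 446 in the IL-11+ libraries, a ratio of 1.08, with overlapping groups. With scaling by library size only, the ratio was 1.43 for the 18 isoprenoid and sterol genes, 1.24 for the 5 regulators and 1.02 for the 9 fatty acid genes. Between libraries of the same number, each of these 4 sums was higher in the IL-11+ library in 3 of 3 pairs, by as little as 1.002-fold for the fatty acid genes in replicate 1. With scaling by library size only this held in 2 of 3 pairs for the fatty acid genes, and likewise for the 15 genes. These sums are descriptions and were given no test.

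The IL-11- libraries also differed among themselves. IL-11- replicate 3 was the highest of the 3 in 13 of the 27 tested genes (48.15%, against 35.1% of all tested genes), and IL-11- replicate 1 was the lowest in 12 (44.44%, against 33.33%). The isoprenoid and sterol sum of IL-11- replicate 1 was the lowest of the 6 libraries. This is the library whose omission lowered *Fdps* under the fold threshold.

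**Figure D2:**
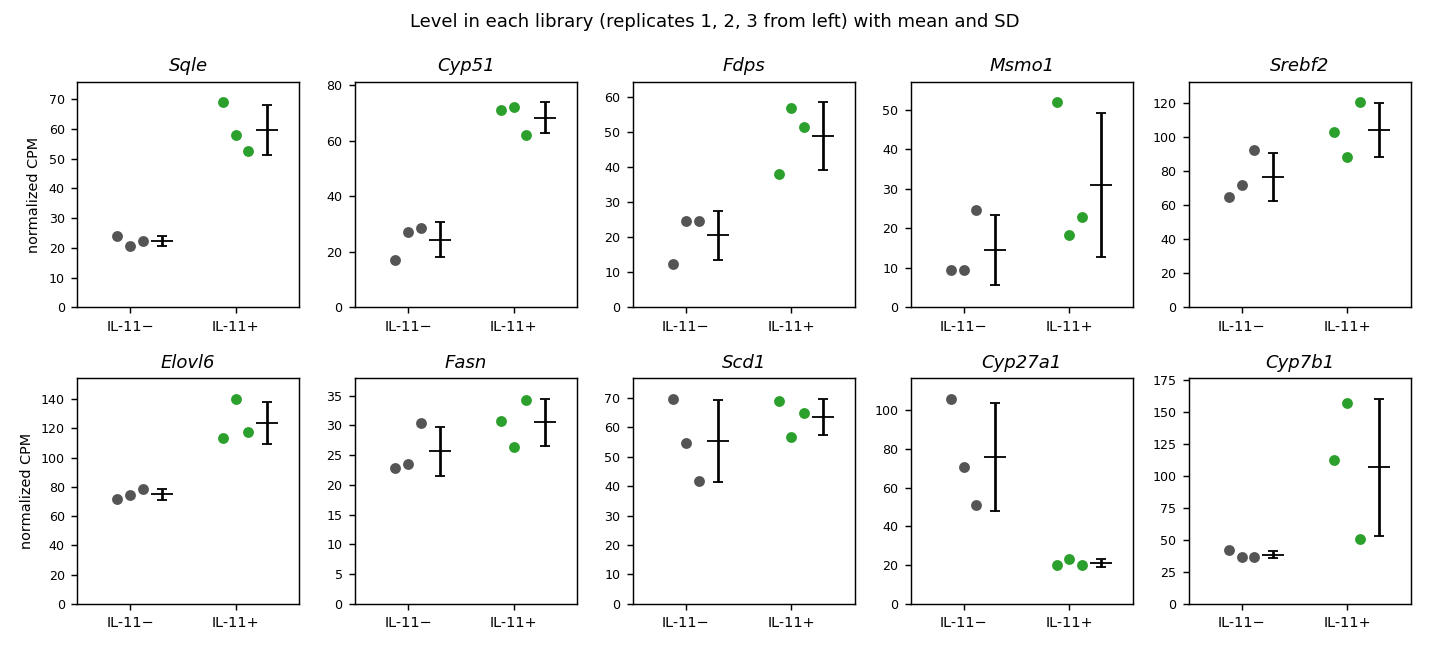
Level in each library, in normalized CPM on the y axis, of 10 genes of sterol and fatty acid metabolism in IL-11- (gray) and IL-11+ (green) fibroblasts, with replicates 1 to 3 from left to right and the mean ± SD of each group beside them. The libraries of the 2 groups are separate for *Sqle*, *Cyp51*, *Fdps*, *Elovl6*, *Cyp27a1* and *Cyp7b1* and overlap for *Srebf2*, *Msmo1*, *Fasn* and *Scd1*.

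Other genes were read from 4 further lists, 3 of lipid metabolism and 1 of proliferation. The first held 26 genes of sterol and fatty acid synthesis and of the sterol-regulated program, of which 25 were found and 18 were tested. Of these, 2 were called higher and 1 lower (3.44% and 6.37% of all tested genes), 6 were higher and 1 lower at an unadjusted p under 0.05 (12.2% and 14.5%), and DESeq2 called 1 higher and 0 lower (3.04% and 5.17%). The median log2 fold change was 0.23. Among the higher genes was *Tmem97*, which encodes a membrane protein that binds the cholesterol transporter Npc1. It had 13, 4 and 11 tags in the IL-11- and 14, 32 and 18 tags in the IL-11+ libraries. Its log2 fold change of 1.34 (edgeR adjusted p = 0.0403) was not called in 8 of 21 alternatives. These were DESeq2, scaling by library size only and the fits without IL-11- replicate 2 (0.996), IL-11- replicate 3 (1.38) or IL-11+ replicate 2 (0.93) (range of the adjusted p over the alternatives 0.00692 to 0.252). It shares 13.5% of its windows with 1 other annotated gene.

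*Hsd17b12*, which encodes a reductase of fatty acid elongation, had 33, 33 and 45 tags in the IL-11- and 60, 60 and 42 tags in the IL-11+ libraries, which amounts to 0.71 on the log2 scale (edgeR adjusted p = 0.0496, range over the alternatives 0.0135 to 0.178). The called lower gene was *Gpam*, which encodes the acyltransferase that starts glycerolipid synthesis. It had 20, 14 and 20 tags in the IL-11- and 7, 6 and 5 tags in the IL-11+ libraries, which amounts to -1.40 on the log2 scale (edgeR adjusted p = 0.0225). It reached 10 tags only in IL-11- libraries, so it could be called only as lower. The call of *Gpam* was lost in 7 of 18 alternatives, namely with DESeq2, without IL-11+ replicate 2 (-1.40) or 3 (-1.25) and, on the genes tested with no library left out, also without IL-11- replicate 1 (-1.28) or 3 (-1.40). Over the alternatives its adjusted p ranged from 0.016 to 0.0917 in edgeR and DESeq2.

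The second list held 19 genes of cholesterol efflux, esterification and oxysterol metabolism, of which 15 were tested, 1 was called higher and 2 were called lower (3.44% and 6.37% of all tested genes), with 2 higher and 3 lower at an unadjusted p under 0.05 (12.2% and 14.5%) and 1 higher and 2 lower by DESeq2 (3.04% and 5.17%). The median log2 fold change was -0.08. The called genes included a pair of hydroxylases that can act one after the other on oxysterols. *Cyp27a1*, which encodes the sterol 27-hydroxylase, had 111, 75 and 62 tags in the IL-11- and 19, 23 and 21 tags in the IL-11+ libraries, which amounts to -1.83 on the log2 scale (SE 0.279, edgeR adjusted p = 0.000121). *Cyp7b1*, which encodes the oxysterol 7-hydroxylase, had 44, 39 and 45 tags in the IL-11- and 106, 155 and 53 tags in the IL-11+ libraries, which amounts to 1.46 on the log2 scale (SE 0.298, edgeR adjusted p = 0.00186). The groups did not overlap for either gene, although IL-11+ replicate 3 of *Cyp7b1* was close to the IL-11- libraries. *Mylip*, which encodes a ubiquitin ligase, had 49, 45 and 31 tags in the IL-11- and 16, 23 and 12 tags in the IL-11+ libraries, which amounts to -1.14 on the log2 scale (edgeR adjusted p = 0.0196). It was not called in 8 of 22 alternatives, those without IL-11- replicate 1 or 2 or IL-11+ replicate 1 or 3, with values of -0.99, -1.07, -1.12 and -0.90 (range of the adjusted p over the alternatives 0.00186 to 0.0951).

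The third list held 28 genes of fatty acid uptake, storage and oxidation, of which 22 were tested, 0 were called higher and 4 lower (3.44% and 6.37% of all tested genes), with 4 higher and 7 lower at an unadjusted p under 0.05 (12.2% and 14.5%) and 0 higher and 4 lower called by DESeq2 (3.04% and 5.17%). Its median log2 fold change was -0.02. *Cd36*, a fatty acid uptake gene, had 10, 15 and 11 tags in the IL-11- libraries and 0 in each IL-11+ library, a level at least 3.60-fold lower when set to the floor of 3 tags in each library (edgeR adjusted p = 0.000263). *Cd36*, *Fabp4* and *Fabp5*, 3 of the 4 lower genes, reached 10 tags only in IL-11- libraries and so could be called only as lower, which leaves nothing to read from the count of 4. Of the genes of fatty acid binding proteins, *Fabp4* had 136, 56 and 29 tags in the IL-11- and 8, 7 and 3 tags in the IL-11+ libraries (edgeR adjusted p = 0.000206), and *Fabp5* had 24, 16 and 11 tags against 2, 0 and 2, at least 5.17-fold lower (edgeR adjusted p = 0.00108). *Fabp5* shares 51.8% of its windows with 5 other annotated genes, so its count is less certain. *Pnpla2*, the gene of the lipase that opens triglyceride stores, had 106, 71 and 64 tags in the IL-11- and 36, 14 and 25 tags in the IL-11+ libraries, which amounts to -1.53 on the log2 scale (edgeR adjusted p = 0.00163). By the adjusted p alone *Acaa2*, a gene of mitochondrial fatty acid oxidation, was added, with 204, 230 and 191 tags in the IL-11- and 131, 130 and 119 in the IL-11+ libraries and a log2 fold change of -0.56 (edgeR adjusted p = 0.0343, range over the alternatives 0.00572 to 0.178). *Fabp4* is also among the adipocyte markers, and the part of the other cells of the IL-11- gate in these differences was not tested. The fourth list, of proliferation genes, had 2 of 10 genes tested, *Pcna* and *Tyms*, with log2 fold changes of -0.33 and 0.19 and 0 called by edgeR, by DESeq2 or at an unadjusted p under 0.05.

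Because 3 of the 33 genes were called higher, the sequences around the starts of the 33 were searched for letters known from this program. Windows of 250 bases before to 50 bases after the start came from RefSeq (GRCm38.p6) and were found for 26 of the 33 genes, in 34 windows. *Fdps*, *Fdft1*, *Sqle*, *Scd1*, *Scd2*, *Fads1* and *Stard4* had no entry, so of the 3 called genes only *Cyp51* could be searched. Both strands were searched. The form TCACNCCAC of the sterol regulatory element was present in 1.24% of all 32851 windows and in 1 of the 34, that of *Hmgcs1*. The NF-Y box CCAAT, bound by a factor that acts with the sterol-regulated factors, was in 37.4% of all windows and in 22 of the 34 (64.7%). The E-box CACGTG was in 7.15% of all windows and in 7 of the 34 (20.6%). These are matches of letters and not mapped binding sites, and a window without them lacks only these letters. The windows of *Cyp51*, which was called higher, of *Hmgcs1*, which held the sterol element form but was not called, and of *Elovl6*, which held none of the 3 motifs, are shown to let their starts be compared. They lie at chr5:4104648-4104947 (minus strand), chr13:119690101-119690400 (plus strand) and chr3:129532136-129532435 (plus strand). Capitals mark the NF-Y box, read as ATTGG where it lies on the other strand, and in *Hmgcs1* also the sterol element form, 137 bases before the start. In *Cyp51* the NF-Y box lies 29 bases before the start. These starts are those of RefSeq and differ from the GENCODE positions given above, and by the GENCODE position the box of *Cyp51* lies inside the gene.
*Cyp51*: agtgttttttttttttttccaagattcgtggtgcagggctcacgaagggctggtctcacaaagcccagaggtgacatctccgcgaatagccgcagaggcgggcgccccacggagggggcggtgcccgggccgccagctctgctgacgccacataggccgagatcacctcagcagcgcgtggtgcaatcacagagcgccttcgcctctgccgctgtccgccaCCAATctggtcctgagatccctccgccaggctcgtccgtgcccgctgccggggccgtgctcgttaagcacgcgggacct
*Hmgcs1*: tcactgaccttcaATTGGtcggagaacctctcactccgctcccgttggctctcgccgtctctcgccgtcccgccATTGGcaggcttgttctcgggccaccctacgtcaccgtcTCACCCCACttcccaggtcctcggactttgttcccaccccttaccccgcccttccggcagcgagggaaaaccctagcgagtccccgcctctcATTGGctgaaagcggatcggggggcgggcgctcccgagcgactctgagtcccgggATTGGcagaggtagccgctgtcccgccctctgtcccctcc
*Elovl6*: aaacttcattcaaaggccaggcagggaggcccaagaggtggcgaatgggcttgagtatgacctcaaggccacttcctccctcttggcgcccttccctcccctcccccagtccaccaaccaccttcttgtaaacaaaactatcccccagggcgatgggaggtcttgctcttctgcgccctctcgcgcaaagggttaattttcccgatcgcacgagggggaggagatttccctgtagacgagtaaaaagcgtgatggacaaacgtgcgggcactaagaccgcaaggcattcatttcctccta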

How the data were processed

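According to the methods and the labels, reads were trimmed by the authors (Cutadapt 1.18) and aligned by Bowtie2 2.2.5, in a single orientation, to mm10 transcripts of RefSeq, and tags were counted for each gene. The deposited values are these raw counts, without normalization. How tags that map to several genes were treated, and whether molecular identifiers were used, is not given in the sources used here, so the floors cover counting error only. The methods, as printed, exclude genes with 10 or more tags, which was read as keeping them.

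From the counts, R 4.3.3 with edgeR 4.0.16 was used (TMM, library sizes from the tags of the tested genes, glmQLFit in its legacy mode and glmQLFTest, Benjamini-Hochberg adjustment over 9334 genes). The test was checked on simulated data. Alternatives were RLE, library size only, iterative TMM, DESeq2 1.42.0, other filters, the adjusted p alone, no mitochondrial or ribosomal RNA symbols, the replicate block and each library left out. Fits without 1 library on the genes tested with all 6 and edgeR without legacy mode were chosen after seeing the data.

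Libraries of both groups are numbered 1 to 3 in the labels, and the methods name 3 mice. Over the 5063 genes that averaged 30 tags or more, the deviations of same-numbered libraries from their group means correlated with r of 0.23, 0.19 and 0.26 (across genes, which are not independent replicates), so the numbers were taken to pair the libraries. The main test left this pairing out because the methods name no block, and the replicate block was fitted as an alternative.

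The 33 genes and the other lists were chosen with earlier results of these data known. Named are all 33 genes, the genes of the 4 pathway lists with an adjusted p under 0.05 (except 2 that are not reported here), and the cell type markers. Tags in every library are given for those of the 33 genes and of the pathway lists with an adjusted p under 0.05, for *Srebf1*, *Srebf2* and *Fasn*, and for genes nearest to the fold threshold. Tags of other genes were added after their values were seen. Positions and shared windows come from GENCODE release M21 (GRCm38) and promoter windows from RefSeq.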

Additional observations from a re-analysis of the deposited data

How the results depend on the processing

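Of the 3 genes called higher, *Sqle* and *Cyp51* were called in each of 22 alternatives, and *Fdps* in 20, all but the fits without IL-11- replicate 1. The number called higher was 3 or 4 in alternatives that kept all libraries and 2 to 4 with 1 library left out, and the number called lower was 0 in each. The replicate block called 4 higher by adding *Msmo1*, and changed no other call among the 33 genes. With 10 tags required in all 6 libraries, 256 genes of all tested were called lower, as were 3 genes of the other pathway lists, and the median log2 fold change of the genes tested was 0.22, with fewer genes tested (7098, and 23 of the 33). By the adjusted p alone, 638 genes of all tested and 5 of the other pathway lists were higher. With 1 library left out, 341 to 580 genes were called lower, 2 to 7 of the other pathway lists were, and the median over the genes tested was 0.23 to 0.47, where fewer samples were used.

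Some values changed sign. With library size only, *Srebf1* was at -0.040, *Acaca* at -0.0028 and *Fads1* at -0.045, and the median of all genes moved to -0.10. With 10 tags in all 6 libraries, *Srebf1* was at -0.00013 and *Fads1* at -0.010. With 1 library left out, the ranges were -0.26 to 0.50 for *Idi1*, -0.084 to 0.52 for *Fdft1*, -0.60 to 0.22 for *Sc5d*, -0.15 to 0.24 for *Srebf1*, -0.22 to 0.29 for *Acaca*, -0.33 to 0.039 for *Scd2* and -0.45 to 0.47 for *Fads1*, and the cause was not tested. Fits without 1 library on the genes tested with all 6, and edgeR without legacy mode were added after seeing the data. With 1 library left out, the log2 fold change of 20 of the 24 tested genes not called moved by over 1.5 times, as did 0 of the 3 called. This move is a ratio of log2 values, which values near 0 pass easily and values past the fold threshold rarely do. The counts of called and not called genes are therefore not comparable. *Fdps* fell from 1.24 to 0.97 and counted as not moved, while *Insig2* fell from 0.48 to 0.30 and counted as moved. Depth and the spread between libraries, whose parts were not tested, limit what can be read from the 24. Of these, 11 had a 95% confidence interval that reached a fold change of 2 in some direction.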
